A study of Mus musculus with 8 samples.

Results

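The 9 genes described here encode 8 chemokine receptors of T cells, Ccr7, Ccr9, Ccr2, Cxcr3, Cxcr4, Cxcr5, Cxcr6 and Cx3cr1, together with S1pr1, the sphingosine 1-phosphate receptor through which lymphocytes leave lymphoid organs. They were taken by name, and all 9 were found among the 49315 gene identifiers of the count tables. The libraries were poly(A) RNA-seq of mouse CD8 T cells in 2 groups of 4, called control and Carm1-edited below. Both groups were OT-I CD45.1 cells, which carry a transgenic T cell receptor for an ovalbumin peptide. Naive CD8 T cells were isolated from inguinal lymph nodes and spleen, by depleting the other cells. Both were nucleofected with Cas9 complexes, with a guide RNA against LacZ, a bacterial gene absent from the mouse, in the control group and against Carm1 in the edited group. Carm1 encodes an arginine methyltransferase that modifies histones and coactivators. Both groups were cultured with 2.5 ng/ml IL-7 and 50 ng/ml IL-15, and RNA was taken 7 days after editing. The age of the mice was not given, and the series' design text, unlike the sample protocols, describes a co-culture with B16F10-Ova melanoma cells. The labels call the 4 libraries of a group technical replicates and do not tie them to animals or cultures, so every p-value below measures the spread between these libraries, which may be technical.

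Chemokine receptors are G protein-coupled receptors that turn a gradient of a chemokine into directed movement through Gi proteins, Rac and integrins. CCR7 guides naive and central memory T cells into lymph nodes and their T zones, whereas S1PR1 senses sphingosine 1-phosphate in blood and lymph and draws T cells out again. CXCR3, CXCR6, CX3CR1 and CCR2 are known from effector and memory T cells in inflamed tissue, CXCR5 from entry into B cell follicles, CCR9 from homing to the gut, and CXCR4 from retention in bone marrow.

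Library totals ran from 37556330 to 41439998 counts. Carm1 itself was at 95.9 ± 1.04 CPM in the control libraries and 32.8 ± 0.493 in the Carm1-edited ones (SD, n = 4 each), so its transcripts were lower but present; loss of a protein by editing need not remove the transcript. CPM are counts scaled to a common library size, here with TMM factors (trimmed mean of M-values). Of Carm1's exon bases 21.1% overlap Yipf2 on the opposite strand, which had 702 counts over the control and 2652 over the Carm1-edited libraries. T cell markers were abundant in both groups, with a summed level of 2886 to 2953 CPM in control and 3880 to 4036 CPM in Carm1-edited libraries over 8 genes, and Cd8a and Cd8b1 together reached 2310 to 2364 and 3273 to 3351 CPM. Markers of other cells moved with the groups, against a background of 44.5% of all tested genes higher and 43.2% lower. The 10 monocyte and macrophage markers summed to 287 to 293 CPM in control and 129 to 138 CPM in Carm1-edited libraries, and the 9 that were tested were lower, 6 of which passed the low-count filter only through the control libraries; Ly6c2, which T cells also express, made up most of the sum, and Lyz2 went from 83.1 to 0.148 CPM. The 6 neutrophil markers summed to 15.9 to 18.0 and 0.144 to 0.351 CPM, with S100a8, S100a9 and Retnlg at 0 counts in the Carm1-edited libraries, and all 4 that were tested passed the low-count filter only through the control libraries, so that they had to be lower. The 4 natural killer cell markers summed to 8.57 to 9.57 and 1.87 to 2.82 CPM, with 3 of 3 tested lower, Ncr1 having passed the filter only through the control libraries. The 8 B cell markers summed to 24.1 to 25.4 and 19.4 to 20.95 CPM, where Igkc (17.5 against 0.306 CPM) passed the filter only through the control libraries. The 3 CD4 and regulatory T cell markers summed to 6.63 to 7.02 and 35.2 to 38.6 CPM, most of it Zbtb7b, and 3 of 3 were higher, Cd4 having passed the filter only through the Carm1-edited libraries. The 6 dendritic cell markers summed to 2.48 to 3.15 and 2.51 to 3.44 CPM, with Cd209a at 0 in all libraries. Of the 5 melanocyte and melanoma markers, Tyr, Tyrp1 and Dct were at 0 counts in all 8 libraries and Pmel was at 3.43 and 12.7 CPM.

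All 9 genes passed the filter on low counts and all 9 differed between the groups, 6 of them higher in Carm1-edited libraries (Cxcr5, Cxcr3, S1pr1, Ccr2, Ccr9 and Cxcr4) and 3 lower (Cx3cr1, Cxcr6 and Ccr7), by edgeR's quasi-likelihood test with Benjamini-Hochberg adjustment over 14970 genes at 0.05. The background was broad: 87.7% of all tested genes were called, 44.5% higher and 43.2% lower, so being called sets none of these genes apart. The sizes ranged from 1.08-fold for Cxcr4 to 14.0-fold for Cxcr5, with Cx3cr1 nearly lost. Cx3cr1 passed the filter only through the control libraries, which fixed its direction. At least 2-fold higher were 2 of the 9 genes (Cxcr5 and Cxcr3), against 20.5% of all tested genes, and at least 2-fold lower were 2 (Cxcr6 and Cx3cr1), against 15.2%. S1pr1, at a log2 fold change of 0.98, was just under the 2-fold cut. It exceeded the cut with upper-quartile factors (1.20), library totals alone (1.14) and a filter of 5 CPM in at least 4 libraries (1.07). Control and Carm1-edited libraries did not overlap for 9 of 9 genes, which was also the case for 83.4% of all tested genes. The median log2 fold change was 0.26 over the 9 genes and 0.020 over all tested genes. The split of calls depended on scaling: of the called genes, 50.8% were higher under TMM and 61.0% under upper-quartile scaling. Against TMM, the median over all tested genes moved up by 0.21 on the log2 scale with upper-quartile factors and by 0.16 with library totals alone. Without the low-count filter it was 0.20 higher, but over 28269 genes instead of 14970, so it does not measure a shift of each gene. The log2 fold changes of the 9 genes moved slightly down there, that of Cxcr4 from 0.11 to 0.084.

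**Figure D1:**
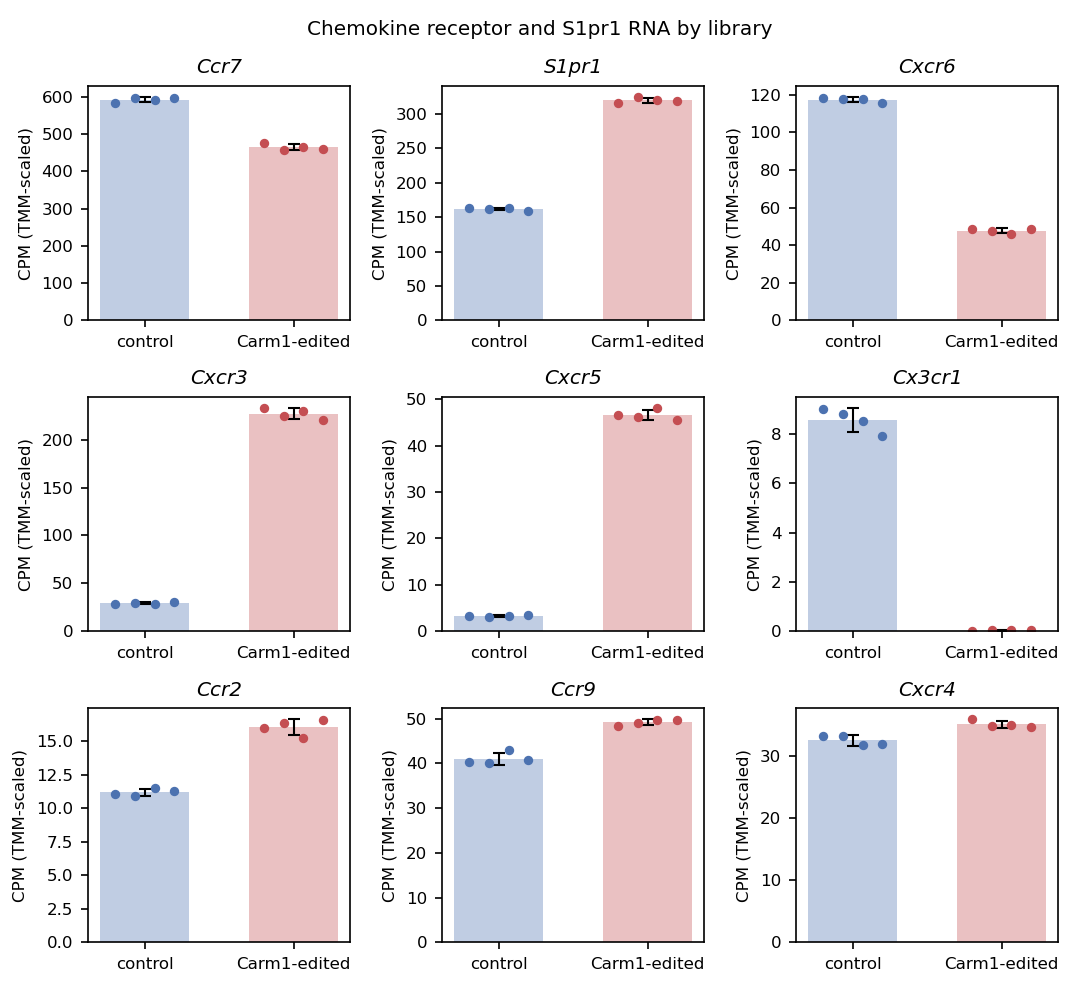
TMM-scaled CPM of the 9 genes, 1 panel per gene with its own linear axis from 0, in the 4 control and 4 Carm1-edited libraries (points are libraries, bars the mean, whiskers the SD). Cxcr5 and Cxcr3 lie more than 7-fold higher in the edited libraries, Cxcr6 and Cx3cr1 lie lower, and the bars of Cxcr4 are the closest in height.

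The lymph node receptors moved in opposite directions. Ccr7, the receptor for CCL19 and CCL21, was at 583, 598, 592 and 597 CPM in control replicates 1 to 4 and at 475, 458, 465 and 460 CPM in Carm1-edited replicates 1 to 4. It stayed abundant in every library, and each edited library was below each control library. Ccr7 fell by 0.35 ± 0.021 (SE) on the log2 scale, a 1.28-fold difference (adjusted p = 1.3e-18). The size of the fall depended on scaling: the log2 fold change was -0.14 with upper-quartile factors and -0.19 with library totals alone. S1pr1 was at 163, 162, 163 and 159 CPM in control and 315, 324, 320 and 319 CPM in Carm1-edited libraries. Its 2 groups were tight and far apart, and S1pr1 rose by 0.98 ± 0.022 on the log2 scale, 1.97-fold (adjusted p = 4.7e-34). In bulk RNA, fewer cells expressing a gene and less of its RNA per cell cannot be told apart, which holds for each gene below.

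Cd69, whose protein binds S1PR1 and removes it from the cell surface, went the other way from S1pr1, with 139 CPM in control and 34.4 CPM in Carm1-edited libraries. Read within single libraries, S1pr1 had 1.14 to 1.18 counts per Cd69 count in the control group and 9.05 to 9.54 in the Carm1-edited group, a ratio that scaling does not touch. The other sphingosine 1-phosphate receptors split. S1pr4, a lymphocyte receptor of the family, rose from 141 to 185 CPM and S1pr2, which couples to Gα12/13 and restrains migration, rose from 8.30 to 16.7 CPM. S1pr5, the egress receptor of natural killer cells and some effector T cells, fell from 0.912 to 0.0245 CPM. Among 15 genes for sphingosine 1-phosphate receptors other than S1pr1, the enzymes and transporters of the lipid, and Cd69, 12 were tested, of which 5 were higher and 7 lower. Over all tested genes, 87.7% were called, 44.5% higher and 43.2% lower. Of the 7 lower genes of the list, 3 (S1pr5, Sphk1 and Spns2) passed the low-count filter only through the control libraries. Sgpl1, the lyase that degrades the lipid, fell from 61.6 to 32.7 CPM and the kinase gene Sphk2 from 60.1 to 47.4 CPM, whereas the phosphatase gene Sgpp1 rose from 80.7 to 96.0 CPM.

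Receptors of inflamed tissue diverged from each other. Cxcr3, the receptor for CXCL9, CXCL10 and CXCL11 on effector and memory T cells, was at 28.8, 30.04, 28.4 and 30.5 CPM in control and 233, 224, 230 and 221 CPM in Carm1-edited libraries. Its lowest edited library was far above its highest control library, and Cxcr3 rose 7.70-fold (log2 fold change 2.95 ± 0.028, adjusted p = 1.6e-46). Cxcr6, the CXCL16 receptor of tissue-resident and tumour-infiltrating T cells, was at 118, 118, 118 and 115 CPM in control and 48.9, 47.7, 45.9 and 48.5 CPM in Carm1-edited libraries. Here every edited library was the lower, and Cxcr6 fell by 1.30 ± 0.026 on the log2 scale, 2.46-fold (adjusted p = 8.1e-36).

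Cx3cr1, the fractalkine receptor of monocytes, macrophages and terminally differentiated effector CD8 T cells, was at 9.02, 8.81, 8.55 and 7.92 CPM in control libraries, from 356, 324, 315 and 290 counts. In the Carm1-edited libraries it had 0, 2, 2 and 2 counts, that is 0, 0.0481, 0.04999 and 0.0501 CPM. Cx3cr1 was thus readily counted in each control library and at or under the floor of 3 counts in each edited one. It passed the low-count filter only through the control libraries, so that it had to be lower. The ratio of summed counts, 1285 to 6, was 209-fold after scaling to library totals (95% exact binomial interval 95.8 to 571, counting error only), and the fitted log2 fold change was -7.75 ± 0.19 (adjusted p = 3.7e-32). Csf1r, the growth factor receptor of monocytes and macrophages, had levels near those of Cx3cr1 and differed between the groups in the same way, with 8.73 CPM in control and 0.0373 CPM in Carm1-edited libraries (1307 and 6 counts). Csf1r, too, passed the low-count filter only through the control libraries, so that it had to be lower. The 3 monocyte and macrophage markers that passed through either group fell less. Itgam went from 2.12 to 1.08 CPM, Cd68 from 5.41 to 3.33 CPM and Ly6c2 from 177 to 128 CPM. What part cells of that lineage had in the Cx3cr1 difference was not tested.

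Ccr2, the CCL2 receptor of inflammatory monocytes and of effector and memory T cells, was at 11.0, 10.9, 11.5 and 11.3 CPM in control and 16.001, 16.4, 15.2 and 16.6 CPM in Carm1-edited libraries. The groups did not overlap, and Ccr2 rose 1.43-fold (log2 fold change 0.52 ± 0.050, adjusted p = 2.0e-12). The summed level of the monocyte and macrophage markers, given above, was lower in the same edited libraries, and most of it was Ly6c2. The part of monocytes in the Ccr2 difference was not tested. Of 6734 stretches of 75 bases in Ccr2 exons, 78 also occur in another gene, so few of its reads could be shared.

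Cxcr5, the CXCL13 receptor that takes B cells and follicular T cells into follicles, had the largest rise of the 9 genes. It was at 3.40, 3.10, 3.23 and 3.52 CPM in control and 46.7, 46.1, 48.0 and 45.5 CPM in Carm1-edited libraries. All 4 edited libraries were more than an order of magnitude above the controls, and the rise was 14.0-fold (log2 fold change 3.81 ± 0.052, adjusted p = 2.6e-41). B cells also express Cxcr5, and of the 4 B cell markers tested 2 were higher, Cd79b (5.71 against 17.1 CPM) and Cd79a (0.460 against 1.93 CPM), 1 was lower, Igkc, and Blk did not pass. The untested Ms4a1 and Pax5 had 14 and 12 counts summed over the control libraries and 1 and 3 over the Carm1-edited ones. The part of B cells in the Cxcr5 difference was not tested. Bcl6, the transcription factor that directs the follicular helper T cell programme, rose from 1.78 to 43.8 CPM (log2 fold change 4.62 ± 0.061). Prdm1, another transcription factor known to act on these receptor genes, also rose, from 4.25 to 11.6 CPM (log2 fold change 1.45 ± 0.068). The part of either factor in the Cxcr5 difference was not tested.

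Ccr9 and Cxcr4 moved least among the genes that were higher. Ccr9, the CCL25 receptor of thymocytes and gut-homing T cells, was at 40.4, 40.1, 42.9 and 40.7 CPM in control and 48.3, 49.1, 49.8 and 49.7 CPM in Carm1-edited libraries. The groups were separate and Ccr9 rose 1.20-fold (log2 fold change 0.26 ± 0.031, adjusted p = 3.9e-10). Cxcr4, the CXCL12 receptor, was at 33.3, 33.1, 31.7 and 31.8 CPM in control and 35.9, 34.8, 34.9 and 34.6 CPM in Carm1-edited libraries. The gap between the closest libraries of the 2 groups was small, and Cxcr4 rose 1.08-fold (log2 fold change 0.11 ± 0.034, adjusted p = 0.0035). That is less than the 0.21 by which upper-quartile scaling moved the median gene. When the test asked for a difference beyond 1.5-fold, the calls of Ccr7, Ccr9, Ccr2 and Cxcr4 were lost and those of the other 5 genes were not.

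**Figure D2:**
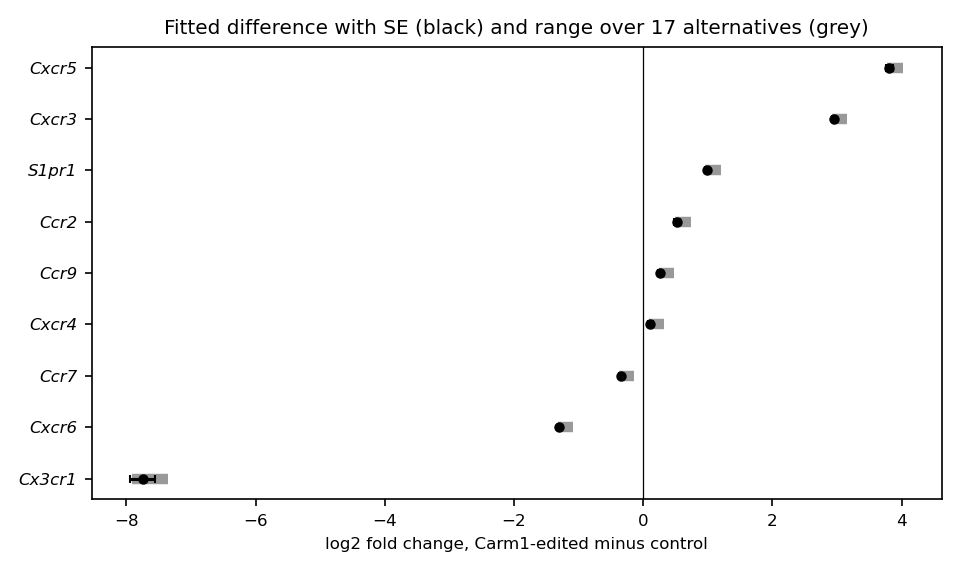
Log2 fold change, Carm1-edited over control, of the 9 genes with TMM scaling (black points, whiskers 1 SE) and the range over the 17 alternative analyses (grey). No range crosses 0, and those of Cxcr4 and Ccr7 come closest to it.

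To compare genes with each other, CPM was divided by the exon length given in the count tables. In control libraries the order was Ccr7 at 299 CPM per kilobase, Cxcr6 at 60.8, S1pr1 at 53.1, Cxcr4 at 18.0, Cxcr3 at 17.02, Ccr9 at 4.00, Cx3cr1 at 1.90, Ccr2 at 1.65 and Cxcr5 at 0.994. Only Cxcr4 and Cxcr3 overlapped among neighbours in that order. In Carm1-edited libraries it was Ccr7 at 235 CPM per kilobase, Cxcr3 at 131, S1pr1 at 105, Cxcr6 at 24.7, Cxcr4 at 19.4, Cxcr5 at 14.0, Ccr9 at 4.80, Ccr2 at 2.37 and Cx3cr1 at 0.00822, with no overlap between neighbours. Cxcr3 thus moved from the fifth place to the second, Cxcr5 from the last to the sixth, and Cxcr6 from the second to the fourth. With the length of the longest coding transcript, a choice made after seeing the data, Ccr2 (1.95) came ahead of Cx3cr1 (1.91) in control libraries with overlapping ranges, and Ccr9 was at 7.89 and 9.47 CPM per kilobase.

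As shares of the summed per-kilobase level of the 9 genes, Ccr7 made up 65.5 ± 0.379% in control and 43.8 ± 0.275% in Carm1-edited libraries (SD, n = 4 each). Cxcr3 went from 3.72 ± 0.113% to 24.5 ± 0.329%, S1pr1 from 11.6% to 19.6% and Cxcr5 from 0.218% to 2.61%. Cxcr6 went down from 13.3% to 4.61%, while Cxcr4 (3.93% and 3.62%) and Ccr9 (0.875% and 0.895%) kept similar shares. Counts within single libraries show the same without any scaling or length: there were 0.0497 Cxcr3 counts per Ccr7 count in control and 0.489 in Carm1-edited libraries, and 0.198 and 0.103 Cxcr6 counts per Ccr7 count.

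**Figure D3:**
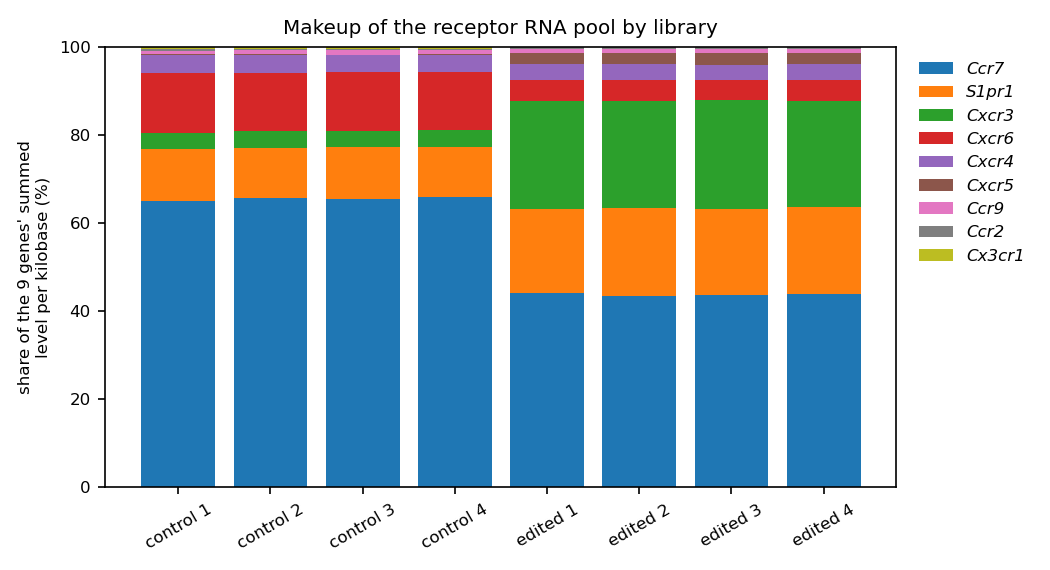
Share of each of the 9 genes in their summed CPM per kilobase, as a stacked bar for each of the 8 libraries. Ccr7 is the largest share throughout, at a mean of 65.5% in control and 43.8% in Carm1-edited libraries, and Cxcr3 is the second largest in the edited ones.

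Of the 9 genes, 5 lie on chromosome 9 of mm10, and 3 of these, Ccr9 (chr9:123678439-123784330), Cxcr6 (chr9:123806475-123811760) and Ccr2 (chr9:124101950-124113557), lie in the receptor cluster there, all on the plus strand. Within this stretch Cxcr6 fell while Ccr9 and Ccr2 rose. Cxcr6 lies inside the span of Fyco1 without sharing exon bases with it, and Fyco1 rose from 32.7 to 55.1 CPM. Lztfl1, also in the cluster, rose from 11.99 to 34.8 CPM. Cxcr5 (chr9:44511787-44561877), Cx3cr1 (chr9:119901616-120069879), Cxcr3 (chrX:101731535-101734269), S1pr1 (chr3:115710433-115715072), Ccr7 (chr11:99144196-99155077) and Cxcr4 (chr1:128588199-128592293) are on the minus strand. Of the 10260 exon bases of Ccr9, 1932 (18.8%) overlap AC165425.1 on the opposite strand, which had 18 counts over the control and 56 over the Carm1-edited libraries. How reads in that overlap were assigned is not given in the sources used here, so the 1.20-fold rise of Ccr9 is uncertain to that extent.

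RefSeq promoter windows (GRCm38.p6) matched 6 of the 9 genes. The stretches upstream of Cxcr3 and Cxcr6, the inflamed-tissue receptors that moved in opposite directions, are shown with bases of their own exons left out. Each is written 5′ to 3′ on the gene's strand, and capitals mark a match to the RUNX motif.
Cxcr3 (chrX:101734270-101734397, minus strand): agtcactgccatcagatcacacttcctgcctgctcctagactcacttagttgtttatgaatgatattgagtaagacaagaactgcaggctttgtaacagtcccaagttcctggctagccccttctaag
Cxcr6 (chr9:123806227-123806474, plus strand): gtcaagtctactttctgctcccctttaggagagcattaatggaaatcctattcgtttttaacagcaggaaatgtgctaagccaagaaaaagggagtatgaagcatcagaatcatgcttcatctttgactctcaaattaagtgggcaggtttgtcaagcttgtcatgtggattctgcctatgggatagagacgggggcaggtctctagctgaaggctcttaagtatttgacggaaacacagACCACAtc
Motifs were searched on both strands: CAGGTG (E-box), TCACACCT (T-box), TGTGGT (RUNX), TGANTCA (AP-1), CTTTGAT (TCF/LEF), CCACACCC (KLF) and GTAAACA (FOXO), of which the T-box and KLF letters share CACACC. The 128 bases of Cxcr3 held none of these letters. The 248 bases of Cxcr6 held 1 match, to RUNX, which 14% of 32851 RefSeq windows trimmed to the same length also hold. Runx3, a RUNX factor of CD8 T cells, rose from 189 to 331 CPM.

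Of 16 other chemokine receptor genes, 7 were tested, 5 were lower and 0 higher by edgeR's quasi-likelihood test, and 2 did not pass, both above an unadjusted p of 0.05; DESeq2 and limma-voom also called 0 higher. Of all tested genes, 44.5% were called higher and 43.2% lower, the background for this list and for the ligands below. Of the 5 lower receptor genes, Ccr6 and Cxcr1 passed the low-count filter only through the control libraries. With upper-quartile factors or library totals alone, 2 were higher, as were 8004 and 7651 of all 14970 tested genes. Ccr4, a receptor of skin-homing and type 2 helper T cells, fell from 24.9 to 9.52 CPM. The others that fell (Cxcr1, Ccr6, Ccr1 and Xcr1) were under 3 CPM in both groups. Of 13 ligand genes of these receptors, Ccl19, Ccl21a, Cxcl12 and Cxcl13 were at 0 counts in all 8 libraries. Of the 6 tested, 2 were higher and 4 lower, but all 4 lower ones (Cxcl10, Cxcl9, Ccl2 and Cxcl16) passed the low-count filter only through the control libraries, which fixed their direction. The CCR9 ligand gene Ccl25 rose from 3.42 to 7.01 CPM (log2 fold change 1.04 ± 0.085), and the CX3CR1 ligand gene Cx3cl1 rose from 0.220 to 0.456 CPM with overlapping groups (adjusted p = 0.0070). The CXCR3 ligand gene Cxcl10 fell from 30.8 to 0.207 CPM, and Cxcl9 was at least 231-fold lower, with 0 counts over the Carm1-edited libraries set to 3 counts over the group. The CCR2 ligand gene Ccl2 was at least 33.5-fold lower on the same floor. Myeloid cells are a main source of these chemokines, and their markers were lower in the same libraries, as given above; their part in the ligand differences was not tested.

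Downstream of the receptors, 30 of 30 genes that link chemokine receptor signalling to movement were called, where 87.7% of all tested genes were. They split evenly, 15 higher and 15 lower, against 44.5% and 43.2% of all tested genes, with a median of 0.028. Rasgrp2, the activator of the integrin regulator Rap1, rose from 48.1 to 234 CPM. Rac2, the Rac GTPase of blood cells, rose from 700 to 1247 CPM and the G protein subunit gene Gng2 from 93.7 to 198 CPM. Elmo1, partner of the Rac activator DOCK2, fell from 201 to 99.7 CPM and Gnb1 from 407 to 233 CPM. With upper-quartile factors or library totals alone, 7 of the 30 were lower instead of 15. Among 15 genes that switch receptors off, 8 were higher, 6 lower and 1 did not pass (Rgs16, 0.883 and 1.13 CPM), which again is near the share called over all tested genes. The receptor kinase gene Grk2 rose from 403 to 791 CPM and Rgs3, which speeds up hydrolysis of GTP on G proteins, from 42.2 to 138 CPM. The arrestin genes split, with Arrb1 falling from 187 to 113 CPM and Arrb2 rising from 102 to 154 CPM.

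Transcription factors known to act on these receptor genes were called in 13 of 14 cases, near the 87.7% of all tested genes. Of the 14, 9 were higher and 4 lower, with a median of 0.48, and Foxp1 did not pass (199 and 203 CPM). Foxo1, a known activator of Ccr7 and Klf2, rose from 107 to 189 CPM, and Tcf7, a factor of naive and memory T cells, rose 2.11 ± 0.021 on the log2 scale. Eomes, a T-box factor of effector and memory CD8 T cells, fell from 173 to 17.7 CPM, and Zeb2, which acts with T-bet in terminal effector cells, from 5.52 to 0.624 CPM. Tbx21, the gene of T-bet, a known activator of Cxcr3, fell from 80.6 to 56.4 CPM while Cxcr3 rose. Klf2, a known activator of S1pr1, was at 180 and 149 CPM while S1pr1 rose. Klf2 passed the test (adjusted p = 0.012), but not under upper-quartile scaling, where its adjusted p was 0.47, nor when only library totals were used, where it was 0.17. The call of Bach2, at 65.4 and 69.6 CPM, was lost without control replicate 3 (adjusted p = 0.061). What part any of these factors had in the receptor differences was not tested.

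Among 13 adhesion molecules and enzymes that work with these receptors in homing, 8 were higher and 5 lower, with a median of 0.24, against a background of 87.7% called in either direction. The integrin genes Itga4 and Itgb7, whose pair binds the gut addressin MAdCAM-1 and acts with CCR9, rose from 60.6 to 181 and from 393 to 647 CPM. Itgae, the αE subunit that binds E-cadherin on epithelium, rose from 5.71 to 57.4 CPM, and Cd44 from 20.2 to 58.4 CPM. Among the 5 lower genes, the enzyme gene St3gal4 fell from 67.9 to 38.4 CPM.

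**Figure D4:**
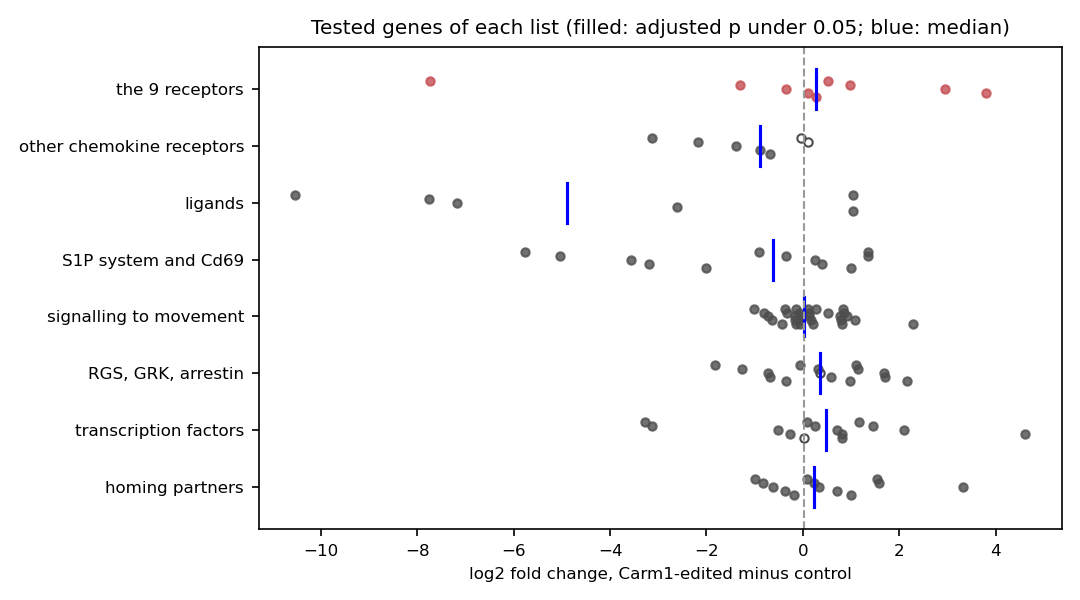
Log2 fold change, Carm1-edited over control, of each tested gene in the 9 receptor genes and in the 7 related lists (1 point per gene, filled where the adjusted p was under 0.05), with the median of each list in blue. Values of Cxcl9 and Ccl2, at 0 counts in the edited libraries, are fitted ones that depend on the prior count and are not sizes; the signalling list is centred near 0 with 15 genes on each side.

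The genes with the most similar profiles over the 8 libraries were found by the Euclidean distance of gene-centred log2 CPM. Candidates were 10191 tested genes with a mean of at least 2 CPM. Genes whose names mark them as predicted genes, clones, accessions or pseudogenes were left out. For Ccr7 the nearest was Coro1a (distance 0.039), an actin regulator of T cells, and for S1pr1 it was Plcg1 (0.048), the phospholipase of T cell receptor signalling. The nearest to Cxcr3 was Arhgef10 (0.12), to Cxcr5 Serpinb6b (0.15), to Cxcr6 Pdap1 (0.058) and to Cx3cr1 Ptgs2 (0.47), the inducible cyclooxygenase. For Ccr9, Ccr2 and Cxcr4 these were Fbxo38 (0.055), Aldh7a1 (0.051) and Rnf181 (0.058). With 2 groups, such a distance mostly measures how alike the difference between the groups is.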

How the data were processed

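Poly(A) RNA of 4 control and 4 Carm1-edited libraries was sequenced as paired reads of 150 bases after an unstranded library kit, per the labels' protocols. The authors deposited gene-level read counts, 1 table per library, made with RSEM on mm10 per the submitters' processing notes; which aligner, versions, annotation release and strand setting were used is not given in the sources used here. Without strand, reads of overlapping antisense genes cannot be told apart. The values are whole numbers and were used as counts. All 49315 genes entered library totals (37556330 to 41439998 counts). Intervals and floors cover counting error only, since no molecular identifiers were used.

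Counts were fitted with edgeR 4.0.16 (R 4.3.3): filterByExpr, TMM factors, robust quasi-likelihood F test, two-sided, Benjamini-Hochberg over 14970 genes, threshold 0.05, no covariates. Every adjusted p is from this test unless named otherwise. The 17 alternatives were scaling by RLE, by the upper quartile or by totals alone, dropping the filter, a stricter filter (5 CPM or more in at least 4 libraries), limma-voom 3.58.1, DESeq2 1.42.0, a test against a 1.5-fold difference, a replicate block and each library left out. Libraries of a group differed by more than sampling noise (chi-square per degree of freedom 1.45 to 13.5), so none was a duplicate.

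The 9 genes and the related lists were chosen with earlier results of these data known. Named genes were the 9, Carm1, from each list members of at least 20 CPM up to the 6 with the smallest adjusted p plus the most abundant, per marker list the 2 most abundant and any at 0 counts in a group, and the nearest profiles. Outside that rule, Bach2, Blk, Ccl2, Ccl25, Ccr1, Ccr6, Cd4, Cd68, Cd79a, Csf1r, Cx3cl1, Cxcl16, Cxcl9, Cxcr1, Foxp1, Fyco1, Itgam, Klf2, Lztfl1, Ms4a1, Ncr1, Pax5, Prdm1, Rgs16, S1pr2, S1pr5, Spns2, Sphk1, Tbx21, Xcr1, Zeb2 and the ligand genes at 0 counts were named after their values were seen. A few genes of the lists are counted in them but not reported here by name. Exon lengths and overlaps came from the exon positions in the deposited tables. Lengths of coding transcripts and shared 75-base stretches came from GENCODE M21, and promoter windows from RefSeq (GRCm38.p6).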

Additional observations from a re-analysis of the deposited data

Results flagged for a closer look

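Of 104 sets of 4 libraries checked (the values of 1 gene in 1 group), 7 had a library whose gap to its nearest neighbour was larger than Dixon's 95% critical value allows for its share of the whole range. Chance alone gives this in about 1 in 20 sets. Among the 9 receptor genes, Cxcr6 was at 115.462 CPM in control replicate 4, against 118 CPM in the other control libraries, and Cx3cr1 was at 0 CPM in Carm1-edited replicate 1, against 2 counts in each other edited library. Neither value reached the range of the other group. Among related genes, Cxcl10 was at 0.0250654 CPM in Carm1-edited replicate 4, against 0.250 to 0.287 in the others. S1pr4 was at 145.267 CPM in control replicate 2, against 139 to 140 CPM, and Runx3 at 199.78 CPM in control replicate 4, against 185 to 187 CPM. In the edited group, Sgpl1 was at 30.9018 CPM in replicate 1, against 33.2 to 33.5 CPM, and Rasgrp2 at 241.404 CPM in replicate 3, against 230 to 232 CPM.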

How the results depend on the processing

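The 9 receptor genes kept their direction in all 153 combinations of gene and alternative and their call in 149; the other 4 were Ccr7, Ccr9, Ccr2 and Cxcr4 in the test against a 1.5-fold difference, which left 3 receptor genes called higher. That test called 3992 genes higher and 3444 lower over all genes. In the related lists it left 3 other chemokine receptors lower, 1 ligand higher, 3 genes of the sphingosine 1-phosphate list higher, 8 signalling genes higher and 4 lower, 2 transcription factors lower, and 5 homing genes higher and 2 lower. Upper-quartile factors gave 2 other chemokine receptors higher, 7 signalling genes lower and 3 homing genes lower. Over all 14970 tested genes they gave 8004 higher and 5121 lower, against 6667 and 6468 with TMM. Library totals alone gave 2 other chemokine receptors higher and 7 signalling genes lower, and over all tested genes 7651 higher and 5457 lower. Without the low-count filter 2 other chemokine receptors were higher and 8 lower, as were 7967 and 7433 of all 28269 genes tested there. With at least 5 CPM in at least 4 libraries, 1 other chemokine receptor was higher and 1 lower, and 1 ligand higher and 1 lower. In that setting 4 genes of the sphingosine 1-phosphate list, 10 signalling genes, 3 desensitisation genes and 3 homing genes were lower. It tests fewer genes, 10171, of which 4707 were higher and 4690 lower, but still all 30 signalling genes. The cause was not tested. Leaving out each library gave 6646 to 6712 genes higher and 6474 to 6568 lower over all genes, and 6 receptor genes higher and 3 lower each time.

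The replicate numbers did not pair the libraries: deviations of same-numbered libraries correlated at -0.085 to -0.051. With the replicate number as a block, 6611 genes were higher and 6420 lower, and 6 receptor genes higher and 3 lower; the call of Klf2 was lost (adjusted p = 0.069). Depth limits Cx3cr1, at or under 3 counts in each edited library, and Cxcl9 and Ccl2, at 0 counts there.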
